A study of Mus musculus with 12 samples.

Results

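Collagen chain genes, those whose symbol is Col, a type number, the letter a and a chain number, were examined in the retinal RNA-seq of a mouse model of oxygen-induced retinopathy (OIR). The rule found 44 such genes among the 36131 genes of the count table. They comprised 11 genes of fibrillar collagens, 8 of basement membrane collagens and 25 of other classes. Retinas of 12 wildtype C57BL/6J mice were taken at postnatal day (P) 18, with 1 library per animal and 4 animals per group. RA-PBS animals 1 to 4 were kept in room air and given a phosphate-buffered saline placebo. O2-PBS animals 5 to 8 entered 75% O2 at P7, were back in room air by P12 and were given a PBS placebo as well. O2-IC100 animals 9 to 12 had the same oxygen exposure and were given 10 μg/g of IC100, a humanized antibody against the inflammasome adaptor ASC, on P12, P14 and P16. Per the labels, injections were intraperitoneal. The study's results on retinal flat mounts describe the placebo as given into the vitreous, and its methods give no route for PBS. If the vitreous route holds for these animals, the route and the antibody cannot be told apart between O2-IC100 and the PBS groups. Counts summed to 14906970 to 24437916 per library. The labels name the animals as separate, and p-values below measure the spread between them.

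Collagens are made of 3 polypeptide chains wound into a triple helix, and most types combine the products of several genes. Fibrillar collagens assemble into the fibrils of vitreous, sclera, cartilage and vessel walls, whereas type IV collagens form the sheet-like network of basement membranes, with types XV and XVIII lying beside it. In the retina, basement membranes line the vessels and the vitreal surface, the vitreous body is built on a scaffold of types II, IX and V/XI, and the lens is enclosed in a capsule rich in type IV. The retina borders the vitreous, and RNA of other eye tissues can be carried along in dissection. The part of such RNA in the collagen values below was not tested.

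Many collagen chain genes are neighbours in the mouse genome, with 8 pairs of members lying next to each other. Col3a1 lies beside Col5a2. Col4a1 and Col4a2, Col4a3 and Col4a4, and Col4a5 and Col4a6 form 3 pairs of type IV genes. The sequences upstream of 3 genes that differed between the groups are shown, with those of RefSeq (GRCm38.p6) read from 250 bases before the gene start up to it, on the strand of the gene and from 5′ to 3′. Capitals mark the motifs searched, on both strands, and a match on the other strand reads as its reverse complement. The TATA box was searched as the letters TATAAA. The GC box was searched as GGGCGG and the hypoxia response core as ACGTG. The last motif was the CCAAT box, under its own letters.
Col3a1, chr1:45311288-45311537, plus strand: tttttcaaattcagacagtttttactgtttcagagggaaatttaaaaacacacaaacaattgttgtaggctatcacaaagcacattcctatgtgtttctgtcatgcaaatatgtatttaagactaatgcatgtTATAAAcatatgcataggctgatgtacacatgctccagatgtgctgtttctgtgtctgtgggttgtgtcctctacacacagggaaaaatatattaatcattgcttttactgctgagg
Col5a3, chr9:20815068-20815317, minus strand: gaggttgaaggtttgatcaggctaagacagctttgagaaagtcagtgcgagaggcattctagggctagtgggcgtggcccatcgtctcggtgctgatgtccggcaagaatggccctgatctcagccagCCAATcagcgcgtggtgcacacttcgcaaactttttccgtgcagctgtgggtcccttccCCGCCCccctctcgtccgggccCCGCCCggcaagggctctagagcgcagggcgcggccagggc
Col8a2, chr4:126286544-126286793, plus strand: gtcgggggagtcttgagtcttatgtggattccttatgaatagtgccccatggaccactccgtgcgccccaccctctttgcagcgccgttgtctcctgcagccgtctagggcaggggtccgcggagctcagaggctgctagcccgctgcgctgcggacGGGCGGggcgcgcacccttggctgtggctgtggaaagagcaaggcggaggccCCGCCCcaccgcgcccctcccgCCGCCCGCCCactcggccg
Col4a1 and Col4a2 are transcribed in opposite directions from a common region, and their first exons share these 22 bases, chr8:11312805-11312826, written on the plus strand: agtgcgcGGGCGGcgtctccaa
Over the window from 250 bases before to 50 bases after the start, 35 collagen chain genes had a promoter in the RefSeq table, and 22 of these held a GC box, against 35.7% of all 32851 promoters of that length. A hypoxia response core stood in 5 of the 35 genes (Col1a2, Col4a4, Col5a1, Col6a6 and Col11a2), against 19.6% of all promoters. A TATA box stood in 5 (Col3a1, Col10a1, Col11a2, Col13a1 and Col17a1), against 13.6%, and a CCAAT box in 13, against 37.4%. A match of this kind describes the letters of the window and is not a measured binding site.

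Lens RNA was not spread evenly over the libraries. A list of 10 lens genes took 33.5% of the counts of O2-IC100 animal 10 (95% Wilson interval 33.44 to 33.48%, which covers counting error alone) and at most 0.00577% in the other 3 O2-IC100 retinas. It took 0.715, 2.68 and 0.844% in RA-PBS animals 2, 3 and 4, 0.00304% in RA-PBS animal 1, and 0.00282 to 0.0106% in the O2-PBS retinas. Of the 10 genes, 5 were above 0 in every library and Lim2 was at 0 in 7. Lens RNA was thus higher in 3 of the 4 room air retinas than in every O2-PBS retina. Rod markers, which define the labelled tissue, were high in every library, at a summed 33249 to 39561 normalized CPM (counts scaled to a common library size) in 11 animals, whereas in animal 10 their share of counts was 0.0770 of the mean share in animals 9, 11 and 12. Y-linked transcripts were high in RA-PBS animals 1, 2 and 3, in O2-PBS animal 8 and in O2-IC100 animals 9, 11 and 12, so that sex was also unequally spread over the groups. O2-PBS animal 6 stood apart for keratin and muscle genes, with a summed 43.3 normalized CPM of corneal and surface epithelial markers against 0.729 to 3.95 in the other 10 retinas outside animal 10. Its level of the fibroblast gene Dcn was 4.80, against 0.111 to 0.121 in the other O2-PBS retinas. The sum of its connective tissue fibroblast list, 76.3, lay inside the O2-PBS range of 51.2 to 116. Animal 6 also had the highest Col1a1, Col1a2 and Col3a1 of its group.

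Collagen chain genes together took 0.0909 to 0.168% of counts in RA-PBS, 0.161 to 0.222% in O2-PBS, 0.125 to 0.139% in O2-IC100 animals 9, 11 and 12, and 0.297% in animal 10. Normalized CPM below are counts scaled to library size by edgeR's trimmed mean of M-values (TMM), given as mean ± SD. The O2-IC100 means leave out animal 10, whose values are given separately. In bulk retina, more cells of a type and more RNA per cell cannot be told apart.

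Levels were summed by class, and no test between classes was made. Basement membrane collagens summed to 347 ± 200 normalized CPM in RA-PBS (n = 4), 711 ± 193 in O2-PBS (n = 4) and 333 ± 29.6 in O2-IC100 (n = 3). Fibrillar collagens summed to 213 ± 52.3, 336 ± 37.4 and 239 ± 2.48. The remaining collagens summed to 560 ± 71.5, 560 ± 47.1 and 587 ± 31.2, so that these group means lay within 1 SD of each other. These sums rest on few genes, since Col4a1 and Col4a2 had mean levels of 336 and 237 in the basement membrane sum of O2-PBS and Col2a1 had 169 in the fibrillar sum. Every O2-PBS retina, at 304 to 388, had a larger fibrillar sum than every RA-PBS retina, at 160 to 282, and than O2-IC100 animals 9, 11 and 12, at 237 to 242. For the basement membrane sum, RA-PBS animal 3, the room air retina with the most lens RNA, reached 641 and lay inside the O2-PBS range of 567 to 980, whereas the RA-PBS minimum was 198.

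**Figure D1:**
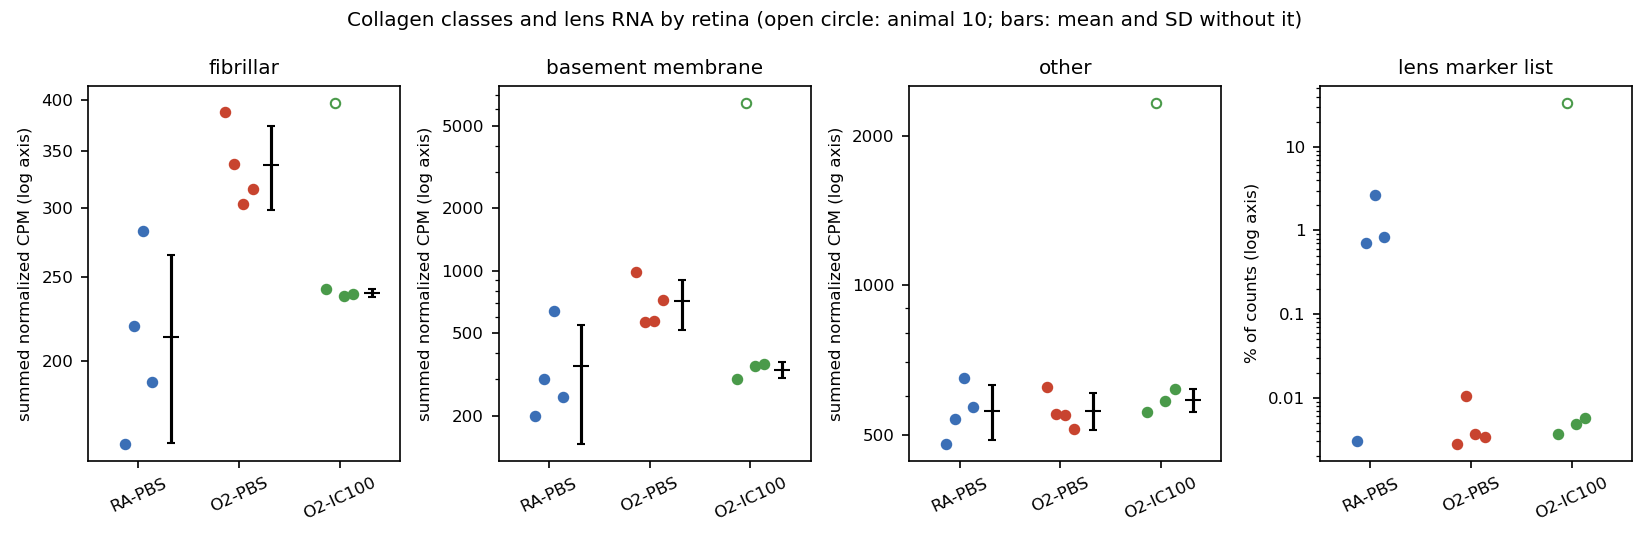
Summed normalized CPM of fibrillar, basement membrane and other collagen chain genes and the percentage of counts from 10 lens genes, 1 point per retina on log axes, with the open circle for O2-IC100 animal 10 and bars for mean and SD without it. The fibrillar sums of O2-PBS (304 to 388) lie above those of RA-PBS (160 to 282), and the lens list stands at 33.5% in animal 10 and at 0.715 to 2.68% in 3 RA-PBS retinas.

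Per kilobase of transcript, which allows levels of different genes to be compared, Col9a1 was the highest chain in RA-PBS (31.3 ± 9.89 normalized CPM per kilobase), followed by Col4a1 (19.8 ± 11.9), Col6a1 (18.8 ± 1.66), Col23a1 (18.2 ± 0.731), Col4a2 (16.3 ± 8.45) and Col2a1 (15.2 ± 3.70). The 4 after Col4a1 lay within 1 SD of it. Col9a1 encodes a type IX chain that coats the type II fibrils of the vitreous. In O2-PBS the order began with Col4a1 (50.8 ± 14.1), Col4a2 (36.8 ± 11.2), Col2a1 (33.1 ± 4.91) and Col9a1 (28.7 ± 4.63), with spreads that overlapped between neighbours. In O2-IC100 it began with Col9a1 (41.6 ± 7.31), Col2a1 (23.2 ± 0.279), Col6a1 (21.5 ± 1.96) and Col4a1 (19.9 ± 2.06), and the last 3 lay close together. Col6a1, a chain of the beaded type VI filaments, and Col23a1, a transmembrane collagen, were among the 6 highest chains in each group.

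The effect of hyperoxia was addressed by comparing O2-PBS with RA-PBS. A gene was called when it changed 1.5-fold or more in edgeR's quasi-likelihood test across all genes, with a p-value under 0.05 that stayed under 0.1 after Benjamini-Hochberg adjustment. With all 12 animals, 43 collagen chain genes were tested (Col10a1 was too low) and 1, Col5a2, was called, where 0.807% of all 16489 tested genes were called and 0.782% were called higher. Of the collagen genes 8 had an unadjusted p-value under 0.05. DESeq2 called 7 in the same 12 animals, where it called 2.67% of all genes. Without animal 10, all 44 were tested and 11 were called, 9 higher and 2 lower in O2-PBS, against 6.27% of 16688 genes called in either direction, 4.09% higher and 2.18% lower. Animal 10 belongs to neither group compared, but the model estimates the spread from all groups together. Col5a2 was called in both fits. In the fit without animal 10 the median log2 fold change was 0.09 over all 44 genes, 0.45 over the 11 fibrillar, 0.29 over the 8 basement membrane and 0.04 over the 25 other genes, against -0.01 over all tested genes. The groups did not overlap, with O2-PBS higher, for 8 members, against 7.8% of all genes, and with O2-PBS lower for 2, against 6.56%.

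Among fibrillar collagens, the genes that rose encode chains of types II, III and V. Col5a2 (ENSMUSG00000026042), an α2 chain of type V collagen, which nucleates and limits the width of fibrils, was 2.64, 2.37, 4.83 and 4.48 normalized CPM in RA-PBS animals 1 to 4 and 19.8, 12.8, 12.2 and 14.9 in O2-PBS animals 5 to 8. All O2-PBS retinas were higher than all RA-PBS retinas, and the log2 fold change was 2.06 ± 0.25 (SE), with an adjusted p of 0.000295. Col5a3 (ENSMUSG00000004098), the third type V chain, was 7.69, 12.2, 17.2 and 15.1 in RA-PBS and 30.0, 32.6, 33.4 and 26.3 in O2-PBS. It did not overlap either and rose by 1.23 ± 0.18 on the log2 scale (adjusted p = 0.0015). Col5a1, the chain found in most type V molecules, was 9.82 to 18.9 in RA-PBS and 14.2 to 22.0 in O2-PBS, which overlapped (log2 fold change 0.45 ± 0.20, adjusted p = 0.213).

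Col3a1 (ENSMUSG00000026043), the type III chain of vessel walls and soft connective tissue and the genomic neighbour of Col5a2, was 4.09, 4.01, 12.2 and 6.32 normalized CPM in RA-PBS and 15.7, 28.3, 22.4 and 18.6 in O2-PBS. The groups did not overlap and the log2 fold change was 1.68 ± 0.31 (adjusted p = 0.00617). Col2a1 (ENSMUSG00000022483), the type II chain that forms the main fibrils of vitreous and cartilage, was 64.2, 79.6, 103 and 62.4 in RA-PBS and 205, 154, 151 and 165 in O2-PBS. It rose by 1.13 ± 0.14 on the log2 scale (adjusted p = 0.000479), again with no overlap. Col2a1, Col3a1, Col5a2 and Col5a3 stayed called in each of 15 alternatives to the fit without animal 10 and when any further animal was left out. Among the 15, removing the fold limit could not lose a call, and the fits without animal 1 or 3 count in both sets. The log2 fold changes of Col2a1, Col3a1, Col5a2 and Col5a3 were 1.37, 2.54, 2.43 and 1.93 with lens RNA as a covariate. Against RA-PBS animal 1 alone, which had little lens RNA, they were 1.38, 2.37, 2.48 and 1.98. Without animal 10, lens RNA spread widely only within RA-PBS. Both fits thus rest mainly on animal 1 and are not separate support. The fit with animal 1 alone assumes that a single room air retina varies like the other groups. For these genes that fit and the lens fit are given as effect sizes. With animal 10 in the fit, the adjusted p was 0.331 for Col2a1, 0.403 for Col3a1, 0.0135 for Col5a2 and 0.316 for Col5a3.

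The type I chains, the most abundant collagen of sclera and skin, were not called. Col1a1 was 1.35, 2.70, 9.10 and 3.58 normalized CPM in RA-PBS and 6.69, 11.2, 6.90 and 7.59 in O2-PBS, with the 3 lower room air values below every O2-PBS value and the value of RA-PBS animal 3 inside the O2-PBS range (log2 fold change 0.96 ± 0.42, adjusted p = 0.203). Without animals 3 and 10 it was 1.67 (adjusted p = 0.00427). That fit was singled out after the data were seen, so its p-values here and below are not separate support. Col1a2 was 6.51, 6.76, 25.6 and 9.48 in RA-PBS and 12.2, 18.1, 10.5 and 9.15 in O2-PBS, a log2 fold change of 0.05 ± 0.42 that was 0.72 without animals 3 and 10 (adjusted p = 0.0907). Of the remaining fibrillar genes, Col27a1 (ENSMUSG00000045672), a chain best known from cartilage, fell. It was 21.8, 42.5, 32.9 and 24.4 in RA-PBS and 21.4, 18.8, 15.9 and 19.3 in O2-PBS, with the closest values 21.8 and 21.4, and the log2 fold change was -0.69 ± 0.17 (adjusted p = 0.0271). Without animal 2 it was -0.48 and no longer past the fold limit, and against animal 1 alone it was -0.22 (adjusted p = 0.249). Col11a1, Col11a2 and Col24a1 had log2 fold changes of -0.28, -0.23 and -0.35 and were not called.

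**Figure D2:**
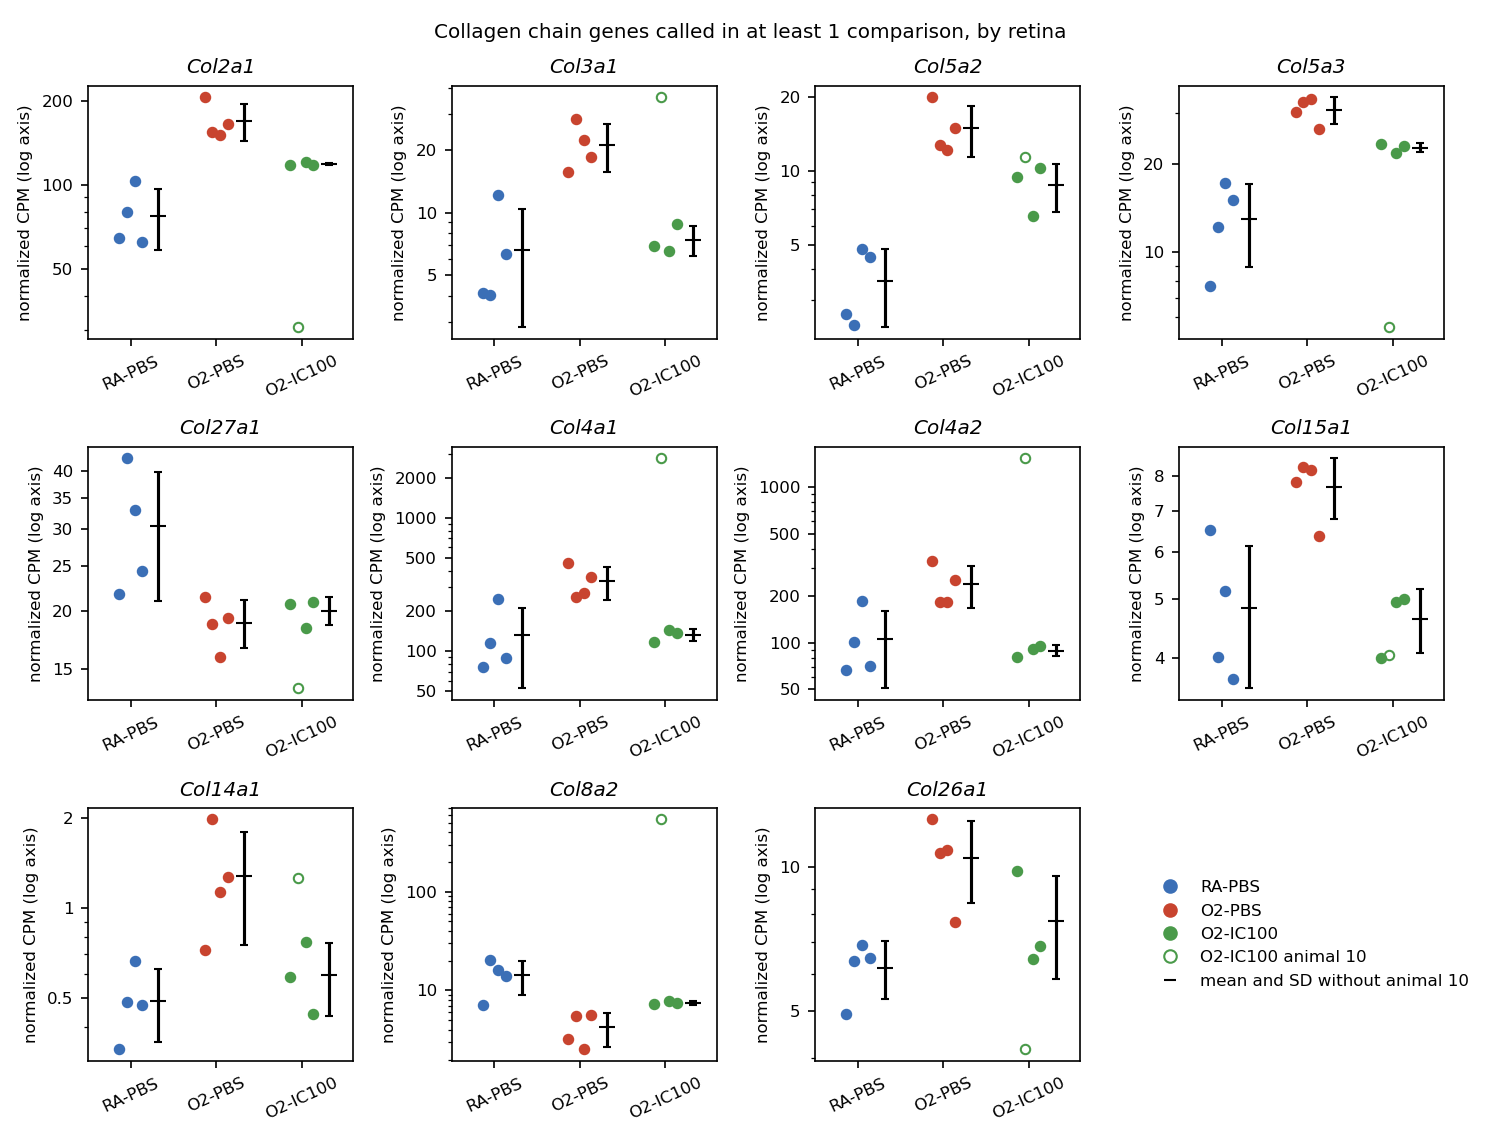
Normalized CPM on a log axis in each of the 12 retinas for the 11 collagen chain genes called in at least 1 comparison, with the open circle for O2-IC100 animal 10 and bars for mean and SD without it. Col5a2 is at 2.37 to 4.83 in RA-PBS and 12.2 to 19.8 in O2-PBS, and on this scale animal 10 lies far above the others for Col4a1, Col4a2 and Col8a2.

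Among basement membrane collagens, Col4a1, Col4a2 and Col15a1 rose. Col4a1 (ENSMUSG00000031502) and Col4a2 (ENSMUSG00000031503) encode the chains of the type IV network found in nearly all basement membranes, vessels included. Col4a1 was 75.4, 114, 247 and 88.7 normalized CPM in RA-PBS and 458, 254, 272 and 358 in O2-PBS. RA-PBS animal 3 came within a few normalized CPM of the lowest O2-PBS retina, and the log2 fold change was 1.36 ± 0.35 (adjusted p = 0.0392). Col4a2 was 66.4, 101, 184 and 70.5 in RA-PBS and 333, 183, 181 and 253 in O2-PBS, so that animal 3 overlapped with O2-PBS (log2 fold change 1.17 ± 0.32, adjusted p = 0.0468). The call of Col4a1 was lost without animal 2 (1.29, adjusted p = 0.105) or 5 (1.17, adjusted p = 0.108), and that of Col4a2 without animal 2 (1.15, adjusted p = 0.114), 5 (0.97, adjusted p = 0.129) or 8 (1.14, adjusted p = 0.106). Without animals 3 and 10 the log2 fold changes were 1.85 for Col4a1 (adjusted p = 0.000191) and 1.58 for Col4a2 (adjusted p = 0.000945). As that fit was singled out after the data were seen, these p-values are not separate support.

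The other 4 type IV chains, Col4a3 to Col4a6, form the more restricted networks of kidney, inner ear and eye, the lens capsule among them. Col4a3 was 5.05, 14.1, 32.2 and 10.0 normalized CPM in RA-PBS and 7.05, 8.55, 6.45 and 8.65 in O2-PBS. Col4a4 was 5.05, 15.0, 31.6 and 10.2 against 13.4, 13.4, 10.1 and 12.3. The groups overlapped for both genes, and the room air values of both spread widely. Col4a5 was 12.8, 16.9, 43.6 and 18.4 against 26.1, 20.3, 20.9 and 14.9. Col4a6 was 2.30, 3.53, 15.99 and 5.69 against 7.42, 5.63, 7.86 and 4.99. Within RA-PBS all 4 were lowest in animal 1 and highest in animal 3, as was lens RNA. The same held for Col4a1, Col4a2, Col18a1, Col1a1 and Col1a2, so that it was not particular to these 4 chains. The log2 fold changes were -0.99 ± 0.43 for Col4a3, -0.33 ± 0.41 for Col4a4, -0.16 ± 0.32 for Col4a5 and -0.08 ± 0.46 for Col4a6, and none of these was called (lowest adjusted p = 0.203). Against RA-PBS animal 1 alone, the direction turned for all 4, to 0.59 for Col4a3 (adjusted p = 0.0487), 1.27 for Col4a4 (adjusted p = 0.000275), 0.67 for Col4a5 (adjusted p = 0.0383) and 1.48 for Col4a6 (adjusted p = 0.00173). In those fits a single room air retina is assumed to vary like the other groups. Leaving out animal 3 in addition to animal 10, also chosen after the data were seen, turned Col4a6 to 0.75 (adjusted p = 0.0966). Col4a5 was then at 0.36 (adjusted p = 0.217), Col4a4 at 0.28 (adjusted p = 0.529) and Col4a3 at -0.35 (adjusted p = 0.424).

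Col15a1 (ENSMUSG00000028339), a proteoglycan-type collagen of vascular and muscle basement membranes, was 6.51, 4.01, 5.16 and 3.69 normalized CPM in RA-PBS and 7.84, 8.29, 8.20 and 6.37 in O2-PBS. The groups overlapped at 6.51 and 6.37, and the log2 fold change was 0.66 ± 0.19 (adjusted p = 0.047). It fell to 0.56 and below the fold limit without animal 4, and was 0.66, 0.62 and 0.63 without animals 5, 6 and 7 (adjusted p = 0.104, 0.133 and 0.126). Against animal 1 alone it was 0.23 (adjusted p = 0.437). Col18a1, the source of endostatin, was 24.9, 33.7, 82.0 and 39.5 in RA-PBS and 128, 73.9, 67.8 and 65.0 in O2-PBS. Animal 3 again lay inside the O2-PBS range (log2 fold change 0.89 ± 0.35, adjusted p = 0.17). Without animals 3 and 10, a fit singled out after the data were seen, the value was 1.35 (adjusted p = 0.00488).

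Of the 25 remaining collagens, Col14a1 and Col26a1 rose and Col8a2 fell. Col8a2 (ENSMUSG00000056174), a short-chain collagen of Descemet's membrane of the cornea and of vessel walls, was 7.07, 20.3, 16.2 and 14.2 normalized CPM in RA-PBS and 3.26, 5.58, 2.54 and 5.65 in O2-PBS. The 3 room air retinas with lens RNA were the highest, and animal 1 was still above every O2-PBS retina. The log2 fold change was -1.76 ± 0.30 (adjusted p = 0.00331), and against animal 1 alone it was -0.73 and not called (adjusted p = 0.109). Its partner Col8a1, singled out after its values were seen, was 6.39, 24.6, 26.6 and 19.7 in RA-PBS and 13.7, 14.2, 10.0 and 16.4 in O2-PBS, which overlapped (log2 fold change -0.51 ± 0.34).

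Col14a1 (ENSMUSG00000022371), a collagen that lies on the surface of fibrils, was 0.337, 0.483, 0.666 and 0.474 normalized CPM in RA-PBS and 0.724, 1.98, 1.13 and 1.27 in O2-PBS, with 6 counts in RA-PBS animal 1. The highest of these values was that of animal 6, the retina with the most keratin and muscle RNA of its group, and the log2 fold change of 1.38 ± 0.40 (adjusted p = 0.0498) was 1.08 without that animal (adjusted p = 0.185) and 1.38 without animal 8 (adjusted p = 0.107). Col26a1 (ENSMUSG00000004415) was 4.94, 6.38, 6.88 and 6.48 in RA-PBS and 12.6, 10.7, 10.9 and 7.71 in O2-PBS. It rose by 0.76 ± 0.18 (adjusted p = 0.0215) with no overlap, and its call held when any single animal was left out. Col10a1, at 0.105 to 0.222 in RA-PBS and 0.301 to 1.19 in O2-PBS, did not overlap but was not called (adjusted p = 0.116). Among the highest collagens of the retina, Col6a1 (log2 fold change 0.13 ± 0.09), Col9a1 (-0.12 ± 0.21) and Col23a1 (0.04 ± 0.07) were not called.

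**Figure D3:**
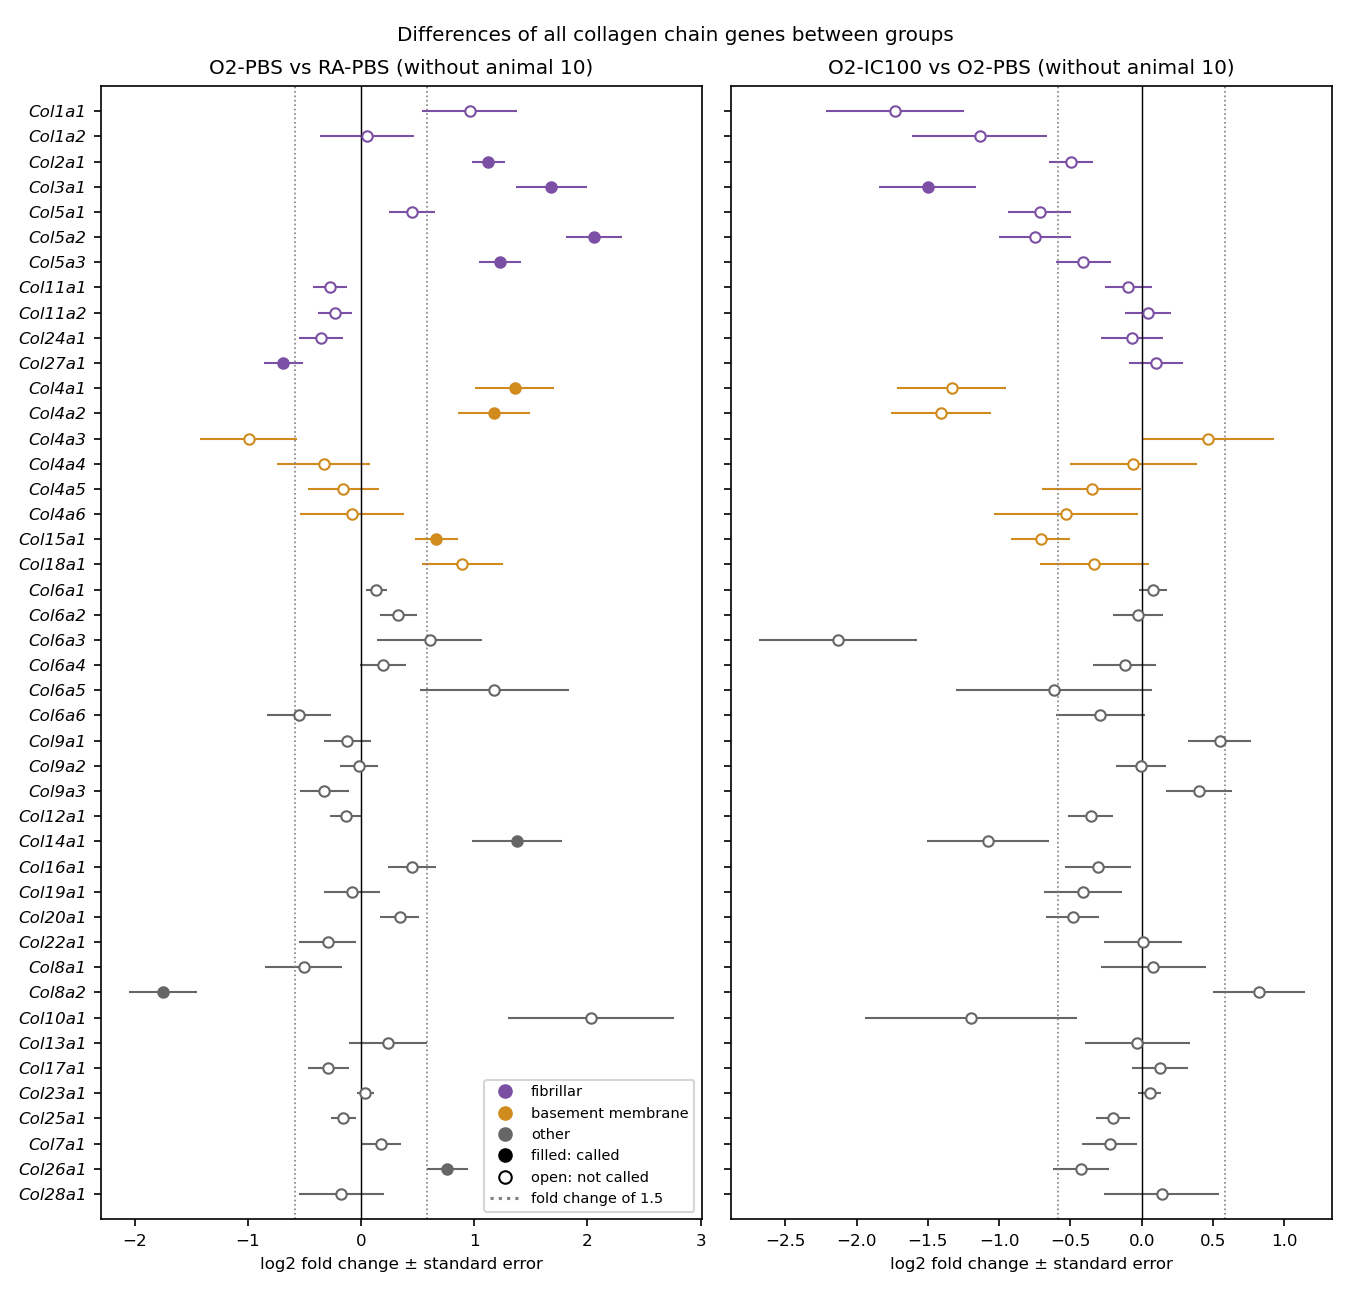
Log2 fold change ± SE of all 44 collagen chain genes for O2-PBS against RA-PBS (left) and O2-IC100 against O2-PBS (right), from the edgeR fit without animal 10, coloured by class, with filled points for called genes and dotted lines at a 1.5-fold change. On the left 9 genes are called higher and 2 lower, and on the right Col3a1 alone is called.

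Markers of several cell types moved with the same comparison, some up and some down. The summed level of 10 endothelial genes, all above 0 in every retina, was 198 to 281 normalized CPM in RA-PBS, 418 to 492 in O2-PBS and 307 to 341 in O2-IC100 animals 9, 11 and 12, with each of the 10 higher in the O2-PBS than in the RA-PBS mean. That of 10 pericyte and mural genes was 175 to 207, 361 to 526 and 312 to 376, and all 10 were above 0 in every retina as well. For 10 connective tissue fibroblast genes it was 22.1 to 113, 51.2 to 116 and 62.0 to 80.7, with overlap between all groups, 7 of the 10 were above 0 in every retina, and Kera was at 0 in 9 animals. For 8 reactive Müller glia and astrocyte genes it was 235 to 637, 607 to 985 and 333 to 425. Lower in O2-PBS were 10 pigment epithelium genes, at 625 to 706, 321 to 447 and 520 to 535, and 6 Müller glia genes, at 2855 to 4314, 2335 to 2655 and 2772 to 2978. All of these were above 0 in every retina, and 1 of the 10 and 1 of the 6 had a higher mean in O2-PBS than in RA-PBS. Rlbp1 is in both lists and made much of the pigment epithelium sum, at 336 to 540 in RA-PBS and 254 to 323 in O2-PBS. Ttr, Rgr and Rpe65 were 51.3, 28.3 and 9.82 in RA-PBS animal 1. These values lay inside the O2-PBS ranges of 22.2 to 65.2, 10.7 to 31.4 and 2.43 to 10.6, whereas RA-PBS animals 2, 3 and 4 lay above them. The part of these cell types, and of lens RNA, in the collagen differences was not tested. With Y-linked expression as a covariate 7 collagen genes were called, where 5.29% of all genes were, and 4 calls were lost. The log2 fold changes of these were 1.40 for Col14a1 (adjusted p = 0.116), 0.71 for Col15a1 (0.109), 0.60 for Col26a1 (0.112) and -0.57 for Col27a1 (0.118). With connective tissue markers as a covariate 10 were called, against 4.09% of all genes, and Col14a1 (1.32, adjusted p = 0.168), Col15a1 (0.69, adjusted p = 0.141) and Col26a1 (0.61, adjusted p = 0.142) were not. With lens RNA as a covariate 19 were called, against 19.8% of all genes, whereas Col15a1 (0.37, adjusted p = 0.272) and Col27a1 (-0.32, adjusted p = 0.332) were not. Lens RNA spread widely only within RA-PBS in these 11 retinas, so this fit compares O2-PBS mainly with RA-PBS animal 1.

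The effect of the antibody was addressed by comparing O2-IC100 with O2-PBS. With all 12 animals, edgeR called none of the 43 tested collagen genes, where 0% of all genes were called. An unadjusted p-value under 0.05 was found for 11 of them, DESeq2 called 1 (0.809% of all genes) and limma voom 0 (0.0121%). Without animal 10, 1 of 44 was called, lower in O2-IC100, against 0.947% of all genes in either direction and 0.731% lower (0.216% were called higher). An unadjusted p-value under 0.05 was found for 16. In that fit 32 members had a lower and 12 a higher estimate. The median log2 fold change was -0.30 over all 44, -0.49 over the fibrillar, -0.44 over the basement membrane and -0.12 over the other genes, against 0.00 over all tested genes. The values of O2-IC100 animals 9, 11 and 12 lay entirely below O2-PBS for 14 members, against 17.3% of all genes, and entirely above for 4, against 18%.

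The called gene was Col3a1, at 6.92, 6.53 and 8.82 normalized CPM in O2-IC100 animals 9, 11 and 12 against 15.7 to 28.3 in O2-PBS. Its highest O2-PBS value was that of animal 6, the retina with keratin, muscle and Dcn RNA, and the other O2-PBS retinas were at 15.7 to 22.4. The log2 fold change was -1.5 ± 0.34 (adjusted p = 0.0863). The call was lost without animal 5, 6, 7, 8, 9, 11 or 12, with Col3a1 between -1.33 and -1.65 and an adjusted p of 0.156, 0.172, 0.177, 0.141, 0.27, 0.302 and 0.256, respectively. In animal 10, Col3a1 was at 36.0 normalized CPM on the TMM scale, and its share of counts was 1.39-fold the mean share in animals 9, 11 and 12. With animal 10 the log2 fold change was -0.56 (adjusted p = 0.589). Without animal 10, the call was also lost with no filter on low counts and at an adjusted p under 0.05. It was lost as well with Y-linked expression as a covariate. Y-linked transcripts were high in animals 9, 11 and 12 but, within O2-PBS, only in animal 8.

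Other fibrillar chains lay lower in these 3 retinas without passing the test. Col1a1 was 2.50, 1.92 and 2.84 normalized CPM in animals 9, 11 and 12 against 6.69 to 11.2 in O2-PBS (log2 fold change -1.73 ± 0.48, adjusted p = 0.13). Col1a2 was 5.22, 4.22 and 7.45 against 9.15 to 18.1 (-1.14 ± 0.47, adjusted p = 0.235). Col5a2 was 9.48, 6.58 and 10.2 against 12.2 to 19.8 (-0.75 ± 0.25, adjusted p = 0.176). These chains and Col2a1, Col5a1 and Col5a3 did not overlap between O2-PBS and the 3 antibody-treated retinas. Col2a1 was 118, 120 and 117 against 151 to 205 (-0.49 ± 0.15, adjusted p = 0.159), and Col5a3 was 23.5, 21.9 and 23.0 against 26.3 to 33.4 (-0.41 ± 0.19, adjusted p = 0.267).

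Col4a1 was 116, 143 and 136 normalized CPM in animals 9, 11 and 12, below the O2-PBS range of 254 to 458, and Col4a2 was 80.8, 90.5 and 94.8, below 181 to 333. Their log2 fold changes were -1.33 ± 0.38 (adjusted p = 0.15) and -1.40 ± 0.35 (adjusted p = 0.115). Col15a1 was 3.99, 4.94 and 5.00 against 6.37 to 8.29 (-0.71 ± 0.21, adjusted p = 0.142). None of these basement membrane genes was called in the model of 3 groups. The 4 restricted type IV chains differed less, from -0.53 for Col4a6 to 0.47 for Col4a3, and Col18a1, at 56.1 to 75.6, overlapped with O2-PBS. Col6a3, a long type VI chain of connective tissue, had the lowest estimate, at 1.76, 0.912 and 2.11 against 6.36 to 8.59 (-2.13 ± 0.55, adjusted p = 0.114).

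On the other side, Col8a2 was 7.24, 7.78 and 7.40 normalized CPM in animals 9, 11 and 12 against 2.54 to 5.65 in O2-PBS (0.82 ± 0.32, adjusted p = 0.213), and Col9a1 was 135, 153 and 190 against 87.1 to 130 (0.55 ± 0.22, adjusted p = 0.226). Neither was called. When the model held only O2-PBS and the 3 antibody-treated retinas, 11 members were called, 10 lower and 1 higher, where 4.83% of all genes were called. DESeq2 without animal 10 called 8, all lower, and 2.3% of all genes. Leaving out RA-PBS animal 1, 2, 3 or 4 as well gave 6, 3, 7 and 8 calls, against 1.69, 1.69, 1.65 and 2.6% of all genes. Leaving out any of the O2 animals gave 0 calls, against 0 to 0.615% of all genes.

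O2-IC100 was compared with RA-PBS to see how far the treated retinas stood from room air. With 12 animals edgeR called no collagen gene, where 0% of all genes were called, 14 had an unadjusted p-value under 0.05, DESeq2 called 2 (1.94% of all genes) and limma voom 0 (0.0121%). Without animal 10, 3 of 44 were called, all higher in O2-IC100, against 1.56% of all genes in either direction and 0.947% higher. They were Col5a2 (log2 fold change 1.31 ± 0.26, adjusted p = 0.0427), Col5a3 (0.82 ± 0.20, adjusted p = 0.072) and Col2a1 (0.63 ± 0.15, adjusted p = 0.074), all without overlap between animals 9, 11 and 12 and RA-PBS. Groups did not overlap for 4 members that were higher in O2-IC100, against 5.18% of all genes, and for 3 that were lower, against 5.49%; 0.617% of all genes were called lower. The Col5a2 call was lost without animal 9 (1.25, adjusted p = 0.134) or 12 (1.18, adjusted p = 0.226), Col5a3 was called in 4 of 11 and Col2a1 in 2 of 11 such fits, and no collagen gene was called when O2-PBS was left out of the model, where 0.11% of all genes were. Col3a1 (0.18 ± 0.34), Col4a1 (0.02 ± 0.37) and Col4a2 (-0.23 ± 0.34) were not called, and their ranges in animals 9, 11 and 12 lay within those of RA-PBS. This comparison and the preceding ones share their control libraries, so the estimates of 1 gene are not independent between them.

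Animal 10 had a collagen profile of its own. As TMM scaling raises its values about 3-fold, its chains are compared here as shares of all counts, against the mean share in animals 9, 11 and 12. Of the 44 genes, 13 were at least 2-fold higher in animal 10, 27 were at 0.5-fold or lower, and 4 lay between. The median was 0.257. The TMM factor of animal 10 was 0.324, against 1.11 to 1.15 in animals 9, 11 and 12. A gene of typical level thus also had a lower share there, and the 27 low shares are not particular to collagens. The same counts were not made over all genes. The 13 included 7 of the 8 basement membrane genes, 2 of the 11 fibrillar genes and 4 of the 25 others. Col6a3 (23.1-fold), Col8a1 (21.0-fold), Col8a2 (20.6-fold), Col1a1 (16.8-fold) and Col4a3 (16.1-fold) led, and all 6 type IV genes were at 4.90-fold or more. Col4a1, with 22008 counts, and Col4a2, with 12029, had the most counts.

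The lowest shares above 0 in animal 10 were those of Col24a1 (0.0152), Col19a1 (0.0175) and Col7a1 (0.0180). Col6a5 (0.0499), Col17a1 (0.0535) and Col6a4 (0.0556) followed. Some chains of types II, V and IX, of the transmembrane types XXIII and XXV and of type XX were low as well. Col2a1 stood at 0.0744 of the mean share of the other 3 animals, Col5a3 at 0.0698, Col9a1 at 0.0984, Col23a1 at 0.0689, Col20a1 at 0.0646 and Col25a1 at 0.0616. On the TMM scale they stood at 0.215 to 0.344 of the mean of animals 9, 11 and 12. By contrast Col5a2, with a share of 0.370, stood at 1.30 on that scale. Col9a3 did not follow its type IX partner Col9a1 and was 3.74-fold higher. Col15a1, at 0.249, was the basement membrane gene that was not higher. Col10a1 had 0 counts, which allows a share of up to 1.23e-05% of the library. Marker lists were measured in the same way, as the share in animal 10 over the mean share in animals 9, 11 and 12. The lists for pigment epithelium (4.78-fold), corneal and surface epithelium (3.34-fold), reactive Müller glia and astrocytes (2.72-fold) and connective tissue fibroblasts (2.33-fold) were higher in animal 10. Ciliary body and iris markers (0.960) and skeletal muscle markers (0.978) were close to the other 3 animals. Pericyte and mural markers stood at 0.630, Müller glia at 0.516, astrocytes at 0.502, rods at 0.0770 and endothelium at 0.0578. Several sums rested largely on 1 gene in animal 10. On the TMM scale Vim made 2949 of 3604 in the reactive glia list and Acta2 524 of 735 in the mural list. Dkk3 made 3143 of 5152 in the Müller glia list and Slc4a5 744 of 890 in the ciliary body list. Rgs5 (26.0 against 235 to 278), Slc1a3 (16.8 against 204 to 213) and Tfap2b (26.5 against 146 to 155) were lower than in animals 9, 11 and 12. These sums thus do not describe whole cell types. The part of each of these sources in the collagen profile was not tested.

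**Figure D4:**
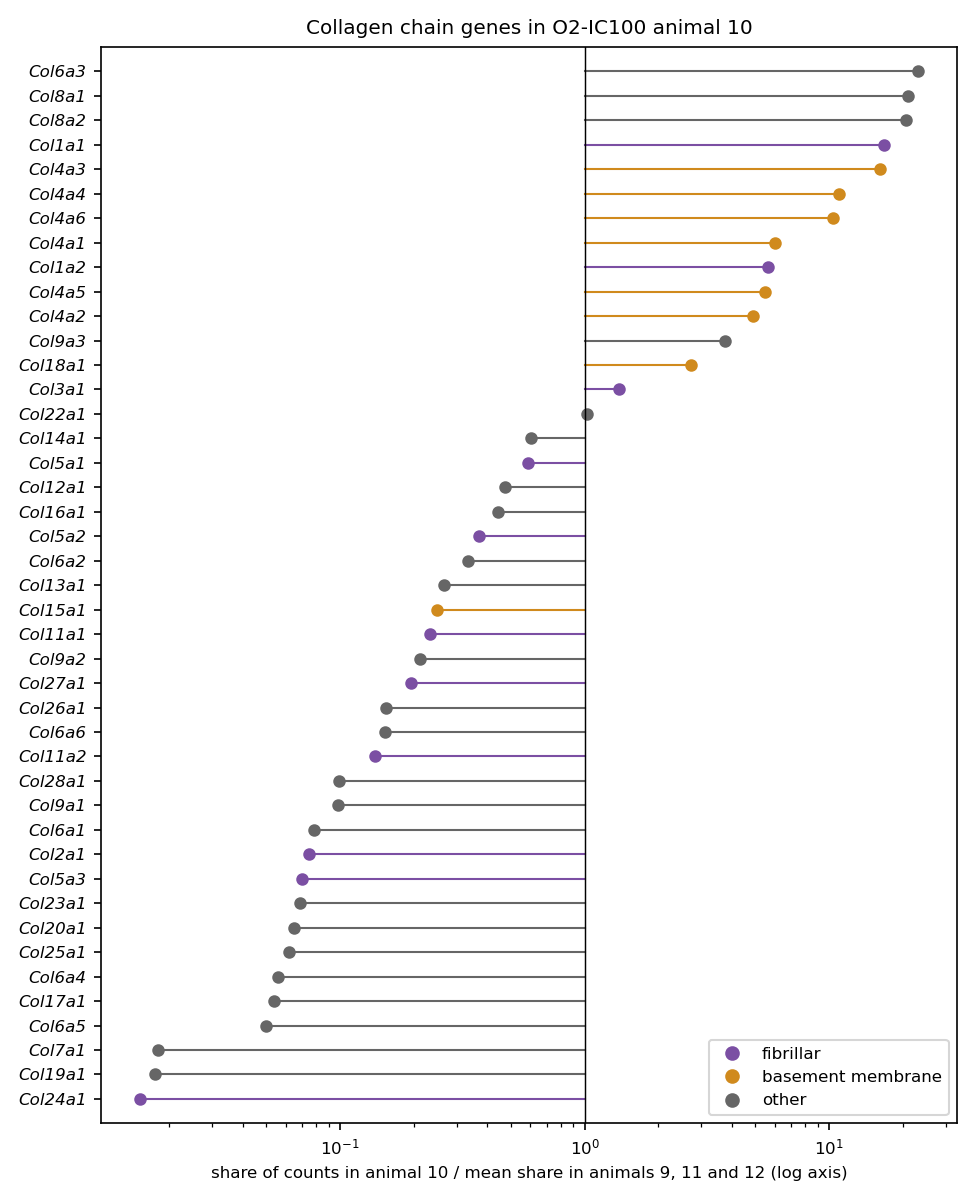
Share of counts in O2-IC100 animal 10 divided by the mean share in animals 9, 11 and 12, on a log axis, for 43 collagen chain genes coloured by class (Col10a1, with 0 counts in animal 10, is not drawn). Of all 44 genes 13 are at least 2-fold higher, 7 of them basement membrane genes, with Col6a3 at 23.1 at the top.

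The proportion of chains that share a molecule or a network was described by ratios of levels per kilobase within each retina, which do not depend on scaling to library size. Col4a1 and Col4a2, whose products combine at 2 to 1, stood at a ratio of 1.10 to 1.31 in RA-PBS, 1.34 to 1.47 in O2-PBS and 1.40 to 1.54 in O2-IC100 animals 9, 11 and 12. For Col4a3 to Col4a4 it was 1.11 to 1.20, 0.623 to 0.834 and 0.928 to 1.18. The O2-PBS retinas were thus lower than all others in this ratio. For Col1a1 to Col1a2, which also combine at 2 to 1, the ratio was 0.187 to 0.361 in RA-PBS, 0.496 to 0.749 in O2-PBS and 0.344 to 0.433 in O2-IC100, with 1.15 in animal 10. The O2-PBS values lay above those of RA-PBS and of the 3 antibody-treated retinas.

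Col5a1 to Col5a2 stood at 1.73 to 3.91 in RA-PBS, and at 0.794 to 1.08 and 0.868 to 1.10 in the O2 groups. The Col5a2 message thus came close to that of Col5a1 after hyperoxia, with and without the antibody. Col2a1 to Col11a1, which make the fibrils of the vitreous together, stood at 4.62 to 6.56 in RA-PBS, 13.0 to 15.8 in O2-PBS and 9.57 to 14.1 in O2-IC100. Col8a1 to Col8a2 stood at 0.767 to 1.39, 2.16 to 3.57 and 1.23 to 1.80. By contrast, Col11a1 to Col11a2 stayed between 0.461 and 0.657 and Col6a1 to Col6a2 between 4.85 and 9.12 in the 11 retinas, with overlap between the groups. The ratios of Col4a5 to Col4a6, Col5a3 to Col5a1, Col6a3 to Col6a1, Col9a1 to Col9a2 and Col9a3 to Col9a1 were also computed. RA-PBS and O2-PBS overlapped in each of them. For Col4a5 to Col4a6 the ranges were 2.78 to 5.66 and 2.70 to 3.67, and for Col5a3 to Col5a1 1.08 to 2.10 and 1.87 to 3.22. All these ratios were picked over pairs that share a molecule and are given without a test.

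**Figure D5:**
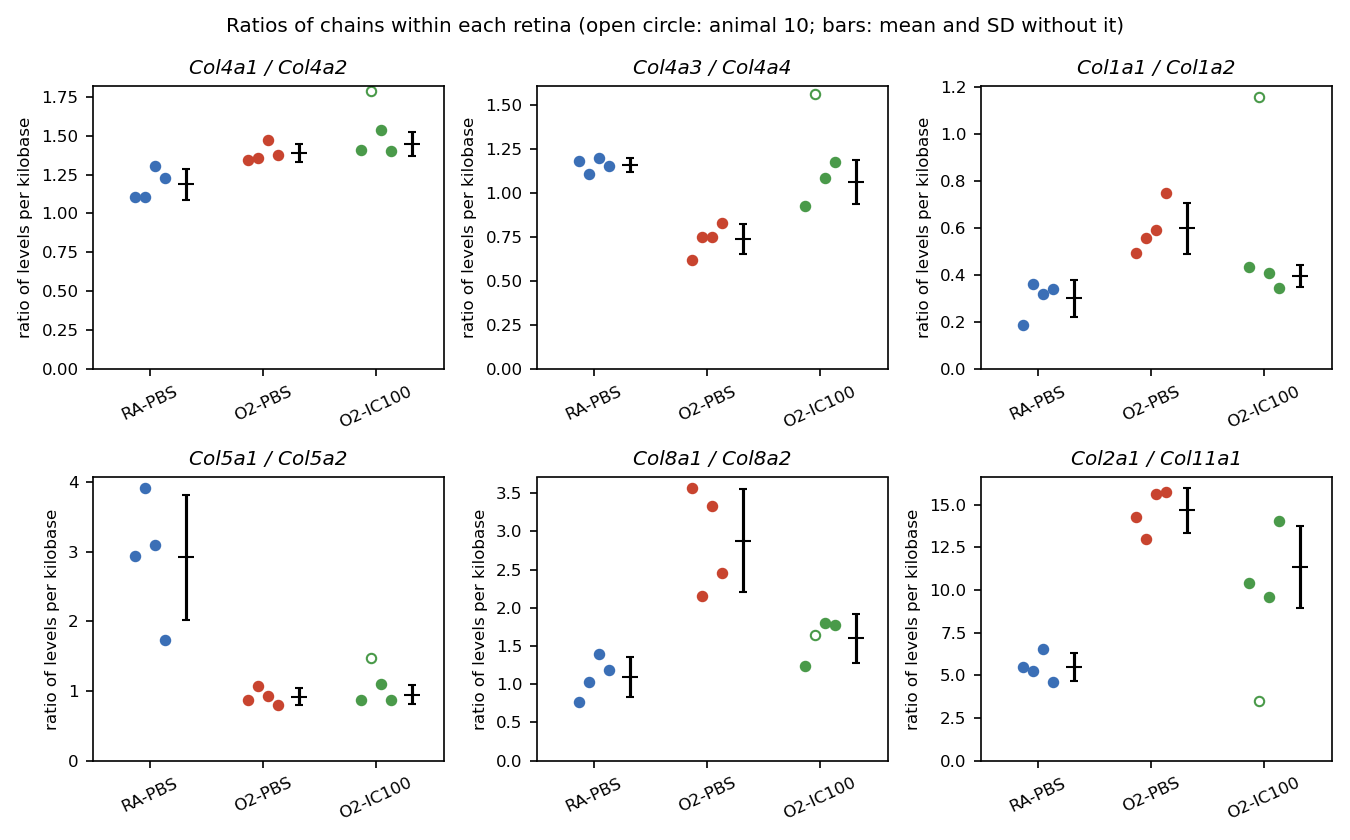
Ratios of levels per kilobase of 6 pairs of collagen chains in each retina, on linear axes from 0, with the open circle for O2-IC100 animal 10 and bars for mean and SD without it. Col2a1 to Col11a1 is at 4.62 to 6.56 in RA-PBS and 13.0 to 15.8 in O2-PBS, and Col4a3 to Col4a4 is lowest in O2-PBS, at 0.623 to 0.834.

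Genes whose products fold, process, cross-link or bind collagens were examined as a list of 55, of which 51 were tested. Without animal 10, 17 of them were called higher and 1 lower in O2-PBS than in RA-PBS, where 4.09% and 2.18% of all genes were, and the median log2 fold change was 0.46. The called genes included 3 of 21 folding and modification genes, 3 of 8 propeptide processing genes, 3 of 6 cross-linking genes, 5 of 10 receptors and 4 of 10 basement membrane partners. With all 12 animals, Itga1, Lama4 and Loxl2 were called, all higher in O2-PBS, where 0.782% of all genes were called higher.

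Lama4, the laminin α4 chain of vascular basement membranes, was 13.8, 8.98, 14.9 and 8.32 normalized CPM in RA-PBS and 59.5, 42.6, 44.0 and 57.2 in O2-PBS. All O2-PBS retinas were above all RA-PBS retinas (log2 fold change 2.14 ± 0.18, adjusted p = 4.36e-05). Nid2, which ties laminin to type IV collagen, rose by 1.58 ± 0.31, and Lamb1 and Lamc1, laminin β1 and γ1, rose by 1.01 ± 0.17 and 0.98 ± 0.20. Among receptors, Mrc2, an endocytic collagen receptor, rose by 2.05 ± 0.42, Itga1, the integrin α1 chain, by 1.77 ± 0.18, Ddr2, a receptor kinase for fibrillar collagens, by 1.16 ± 0.32, and Itga2, the integrin α2 chain, by 1.06 ± 0.33. Pcolce, which enhances removal of the C-propeptide from fibrillar procollagens, was 6.96, 10.7, 20.3 and 10.8 in RA-PBS and 47.4, 40.7, 48.5 and 37.9 in O2-PBS (1.84 ± 0.24). Its relative Pcolce2, the 1 gene of the list called lower, fell by 0.97 on the log2 scale (adjusted p = 0.0102). The collagen chaperone Serpinh1 rose by 1.41 ± 0.20, the folding factor Fkbp10 by 1.08 ± 0.15, and the lysyl oxidase Loxl2, which cross-links collagens, by 1.42 ± 0.21.

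In O2-IC100 against O2-PBS without animal 10, 8 of the 51 were called lower and 0 higher, where 0.731% and 0.216% of all genes were, with a median log2 fold change of -0.36. Lama4 was 15.8, 16.6 and 16.3 normalized CPM in animals 9, 11 and 12, below all O2-PBS retinas (-1.63 ± 0.20, adjusted p = 0.0185). Lamc1 (-1.25 ± 0.22), Lamb1 (-1.03 ± 0.18) and Lamb2 (-0.82 ± 0.17) were the other laminin chains called, so that 4 of 10 basement membrane partners were lower. Pcolce (-1.22 ± 0.25), Loxl2 (-1.03 ± 0.22), Itga1 (-0.92 ± 0.19) and Plod1 (-0.69 ± 0.12), a lysyl hydroxylase of collagens, made up the remaining 4. With all 12 animals edgeR called 0 of the 51, where 0% of all genes were called.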

How the data were processed

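Retinal RNA of 12 mice was measured by polyA-selected, 150 bp paired-end RNA-seq. The authors pseudoaligned reads to GRCm39 transcripts with Kallisto and summed them per gene with tximport (versions not given in the sources used here), and the deposited table holds expected counts, not normalized, in which 42.2% of values are not whole. They were rounded. Symbols were matched by Ensembl identifier (35374 of 36131 genes). The 3 groups were fitted together in edgeR 4.0.16 (R 4.3.3) with TMM, filterByExpr, a robust quasi-likelihood fit, two-sided tests and Benjamini-Hochberg adjustment over all tested genes, with all 12 animals and without animal 10. Lengths per kilobase are of the longest coding transcript in GRCm38, another build than the authors'. The floor of 3 counts was 1.23e-05 to 2.01e-05% of a library. Chain genes named by rule are those called in any comparison, the type IV chains, Col1a1, Col1a2 and Col18a1, and, of partner genes, up to 12 called per comparison by size of change. Col5a1, Col6a3, Col8a1, Col9a1, Col10a1 and Pcolce2 were singled out after their values were seen. Further chains named for low shares in animal 10 were chosen likewise. The members, classes, lists and tests were chosen with earlier results of these data known. Libraries of a group were compared and none was a duplicate. Alternatives were DESeq2 1.42.0, limma 3.58.1 voom, other normalizations, filters and thresholds, fits of 2 groups, covariates and animals left out. Scripts were tested on simulated data.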

Additional observations from a re-analysis of the deposited data

Results flagged for a closer look

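In 18 collagen genes, each group of 4 was searched for a sample whose gap to its nearest neighbour, divided by the range of the group, exceeded Dixon's 95% critical value. Of 54 tests 15 passed, where chance flags about 1 in 20 groups, and 13 were O2-IC100 animal 10, the retina with 33.5% lens counts. It was the highest for Col8a2 (ratio 0.999, 537 normalized CPM), Col4a4 (0.999, 447), Col4a6 (0.998, 160), Col4a3 (0.996, 591), Col4a5 (0.994, 305), Col1a1 (0.993, 142), Col4a1 (0.99, 2778), Col4a2 (0.99, 1519), Col1a2 (0.97, 111), Col18a1 (0.966, 628) and Col3a1 (0.922, 36.0), on a scale that raises its values about 3-fold. Its share of counts for Col3a1 was 1.39-fold the mean share in animals 9, 11 and 12. It was the lowest for Col2a1 (0.97, 30.8) and Col5a3 (0.911, 5.55). RA-PBS animal 3, with 2.68% lens counts, was the highest of its group for Col1a2 (0.845, 25.6). O2-PBS animal 5 was the highest of its group for Col18a1 (0.859, 128).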

How the results depend on the processing

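No paired analysis was possible because the animals are numbered 1 to 12 with no number shared between groups. Col2a1, Col3a1, Col5a2 and Col5a3 stayed called in O2-PBS against RA-PBS without animal 10 under all 15 alternatives. Among the 15, removing the fold limit could not lose a call, and the fits without animal 1 or 3 are also leave-out fits. Counts of called collagen genes follow, each with the percentage of all tested genes called in brackets. With 12 animals, O2-PBS against RA-PBS (1 called) gave 7 (2.67) with DESeq2, 11 (5.36) with only both groups and 17 (16) with a lens covariate; O2-IC100 against O2-PBS (none) gave 1 (0.809) with DESeq2; O2-IC100 against RA-PBS (none) gave 2 (1.94) with DESeq2 and 21 (23.5) with the lens covariate. Without animal 10, O2-PBS against RA-PBS (11 called) gave 19 (19.8) with the lens covariate, 7 (5.29) with a Y-linked covariate, 17 (8.09) without animals 3 and 10 and 22 (24.3) without animals 2, 3, 4 and 10; O2-IC100 against O2-PBS (1 called) gave 8 (2.3) with DESeq2, 0 (0.625) with no filter, 3 (1.29) with a stricter filter, 0 (0.318) at an adjusted p under 0.05, 11 (4.83) with only both groups, 7 (1.98) with the lens, 0 (0.276) with the Y-linked and 5 (0.917) with a connective tissue covariate, 6 (1.69) without animals 1 and 10, 7 (1.65) without animals 3 and 10 and 11 (4.44) without animals 2, 3, 4 and 10; O2-IC100 against RA-PBS (3 called) gave 6 (3.4) with DESeq2, 1 (0.545) at an adjusted p under 0.05, 0 (0.11) with only both groups, 9 (11.3) with the lens covariate and 11 (17.1) without animals 2, 3, 4 and 10. Of the 11 calls without animal 10, the lens covariate lost Col15a1 and Col27a1. In that fit lens RNA spread widely only within RA-PBS, so that the result rests mainly on RA-PBS animal 1. Leaving out 1 of the 12 animals gave, in the same order, 1 to 11 (0.192 to 6.27), 0 to 1 (0 to 0.947) and 0 to 3 (0 to 1.56). Leaving out 1 more without animal 10 gave 8 to 17 (4.72 to 8.09), 0 to 8 (0 to 2.6) and 0 to 5 (0.124 to 5.57). Restricted type IV chains turned direction (log2 fold change). For O2-PBS against RA-PBS with the lens covariate, Col4a3 was 1.5, Col4a4 1.99, Col4a5 1.45 and Col4a6 2.34 in 12 animals, and Col4a4 1.24 and Col4a6 1.52 without animal 10. Without animals 2, 3, 4 and 10 they were 0.59, 1.27, 0.67 and 1.48, and Col4a6 was 0.75 without animals 3 and 10 and -0.37 to 0.75 when any 1 further animal was left out. For O2-IC100 against RA-PBS, Col4a3 was 1.06 and Col4a4 1.17 with the lens covariate, and Col4a3 1.06, Col4a4 1.21 and Col4a6 0.95 without animals 2, 3, 4 and 10. The fits without animals 3 and 10 and without animals 2, 3, 4 and 10 were chosen after seeing the data, and the latter keeps 1 room air retina, assumed to vary like the other groups. The cause of these shifts was not tested. Depth limits the lowest chains, Col6a5, Col10a1, Col14a1 and Col28a1, which had few counts per library.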
